A study of Mus musculus with 21 samples.

Results

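The cytosolic ribosomal protein genes were followed across fibroblasts carrying dendritic cell factors, untransduced fibroblasts and splenic dendritic cells. The group held the 85 gene symbols, of 24455 in the count table, that start with Rpl (52 genes, proteins of the large subunit) or Rps (33 genes, proteins of the small subunit). Of the 101 symbols with those beginnings, 10 Rps6k kinases, 5 pseudogenes with -ps in the symbol and 1 binding protein gene with bp in the symbol were left out. All 85 were looked up in every library. A filter on low counts kept 84 of them in the fits used below, and 81 had a mean of at least 50 CPM (UMIs of a gene scaled to the total of its library) over the 21 libraries. Rpl10l, a gene like Rpl10, was the one that did not pass the filter and had at most 1 UMI in any transduced library.

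The cells came from mouse embryonic fibroblasts (MEFs), profiled with the droplet-based 10x 3' assay, which counts unique molecular identifiers (UMIs) of polyadenylated RNA. The 2 MEF libraries were wildtype, not transduced and sorted as live. The 16 transduced libraries formed 8 arms, each with 1 library at day 3 and 1 at day 9 after lentiviral delivery. The factor sets were PI8 (Pu.1 and Irf8), PIB (Pu.1, Irf8 and Batf3, spelled Baft3 in the labels), PI4 (Pu.1 and Irf4), PIP (Pu.1, Irf4 and Prdm1), SI8 (Spib and Irf8) and SII (Spib, Irf8 and Ikzf2). All 6 were put into fibroblasts of genotype Clec9aCre/Cre Rosa26stopflox-tdTomato/tdTomato and sorted as tdTomato+. SI8 and SII were also put into hCD2Cre/WT Rosa26stopflow-YFP/WT fibroblasts and sorted as YFP+. Transduced cells were therefore those in which the Clec9a or hCD2 Cre had switched on the reporter, and the MEF controls carried neither the virus nor the reporter. Wildtype spleen gave 1 library each of cDC1 (CD11c+MHC-II+CD8α+), cDC2 (CD11c+MHC-II+CD11b+) and pDC (CD11c+SiglecH+B220+BST2+). The labels do not tell whether libraries came from separate animals or cultures, so a p-value here reflects only how these libraries scatter, and that scatter may be technical.

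A ribosome is built from a small subunit, which reads the messenger RNA, and a large subunit, which joins amino acids. Its proteins are needed in nearly equal amounts, and their messenger RNAs begin with a run of pyrimidines (the 5' TOP motif) through which mTOR signalling and LARP1 control their translation. Some proteins also have paralogs: RPL39L in place of RPL39, RPL22L1 in place of RPL22, and RPS27L in place of RPS27.

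The coding sequences of 1 such pair are shown because the pair differed most in where it was found. They are the GENCODE M21 (GRCm38) coding sequences of Rpl39, an exit-tunnel protein gene at chrX:37082520-37085402 on the minus strand, and of Rpl39l at chr16:10170226-10174911 on the plus strand. Both are 156 bases long and 85.3% identical, and the 23 differing bases are in capitals.
Rpl39: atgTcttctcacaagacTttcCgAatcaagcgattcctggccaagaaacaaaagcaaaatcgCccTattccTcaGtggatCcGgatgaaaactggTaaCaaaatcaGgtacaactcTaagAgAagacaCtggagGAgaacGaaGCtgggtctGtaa
Rpl39l: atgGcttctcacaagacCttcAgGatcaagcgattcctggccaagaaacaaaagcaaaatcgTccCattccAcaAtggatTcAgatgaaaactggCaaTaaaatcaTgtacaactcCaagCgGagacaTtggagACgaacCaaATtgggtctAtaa
Rps27 (chr3) and Rps27rt (chr9) had coding sequences identical at 255 of 255 bases, so the counting could have split their reads, and every value of Rps27rt below is uncertain. The other pairs were less alike, with 87.9% identity for Rpl36a and Rpl36al and 66.9% for Rpl22 and Rpl22l1.

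The start windows of these 4 genes are given for the pyrimidine run. Each is 30 bases on the sense strand, 15 before and 15 after the RefSeq GRCm38.p6 start, at chrX:37085208-37085237 for Rpl39, chr16:10170213-10170242 for Rpl39l, chr3:90213634-90213663 for Rps27 and chr9:114982725-114982754 for Rps27rt. Capitals mark the longest run in each window of a C followed by 4 or more C or T letters, and shorter runs of that kind stay in lower case.
Rpl39 start: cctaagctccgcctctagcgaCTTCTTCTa
Rpl39l start: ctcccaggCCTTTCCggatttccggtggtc
Rps27 start: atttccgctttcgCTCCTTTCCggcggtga
Rps27rt start: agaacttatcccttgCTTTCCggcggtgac
A RefSeq window was matched for 65 of the 85 genes. Such a run, searched on the sense strand only and counted when any annotated start of the gene had it, was present in 43 of 65 (66.2%) and in 10885 of all 27025 RefSeq genes (40.3%). A match describes the letters of the window and is not a tested control site.

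Some libraries stood apart, and results that rest on them are given with and without them. The library labelled PI8 day 9 held fibroblast markers at a summed 6.13 CPM (5 of 8 detected, with Col3a1, Lum and Pdgfra at 0), against 447 to 3189 CPM in the other 15 transduced libraries and 18981 and 18724 CPM in MEF. Its leukocyte markers summed to 1163 CPM, against 187 to 1240 CPM in the other transduced libraries. B cell markers summed to 44.2 CPM (3 of 4 detected, Ms4a1 at 0) against 0 to 1.27, and the pDC list to 298 CPM (4 of 4 detected) against 912 to 6055. Its Myc level was 146 CPM against 1.04 to 10.9, its Mycn level 31.6 CPM against 0 to 0.537, and its level of the nucleolar gene Ncl 1576 CPM against 274 to 713. The part of these genes in its values was not tested, and its label is in doubt. It is called PI8 day 9 below because it is so labelled, and its difference from PI8 day 3 is not read as a change over time. The 2 SI8 libraries of the hCD2 line were shallow, with medians of 2765 and 2786 UMIs per cell, and gave 8.32% and 10.8% of their UMIs to Gm42418, AY036118 and Lars2. Library totals ran from 2291128 to 89394715 UMIs, and a pair of libraries shared at most 4 cell barcodes. The splenic libraries held all 4 defining markers of their own type, at summed levels of 1933 CPM in cDC1, 715 in cDC2 and 11095 in pDC.

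Ribosomal protein genes took a smaller part of the UMIs in nearly every transduced library than in untreated fibroblasts. Their summed share was 24.7% and 25.1% in the 2 MEF libraries. At day 3 it was lowest at 17.1% (SI8, Clec9a line), with a median of 19.5% and a highest value of 21.3% (PI4). At day 9 it ran from 12.7% (SI8, Clec9a line) through a median of 16.8% to 35.1% (PI8). All 8 day 3 libraries and 7 of 8 day 9 libraries lay below both MEF libraries, and PI8 day 9 lay above every other library. Exact binomial 95% intervals of these shares were narrow, such as 35.07% to 35.14% in PI8 day 9, and cover counting error only. The mean over the 16 transduced libraries was 5.94 percentage points below MEF (exact permutation test, two-sided, n = 16 and 2, p = 0.111; adjusted p = 0.417 over 5 such tests). Without PI8 day 9 the difference was -7.02 points, with each of the other 15 below both MEF libraries; no p is given, since the library left out was the only one above them. A share falls when other transcripts rise, so a smaller share and less ribosomal protein RNA per cell cannot be told apart here.

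**Figure D1:**
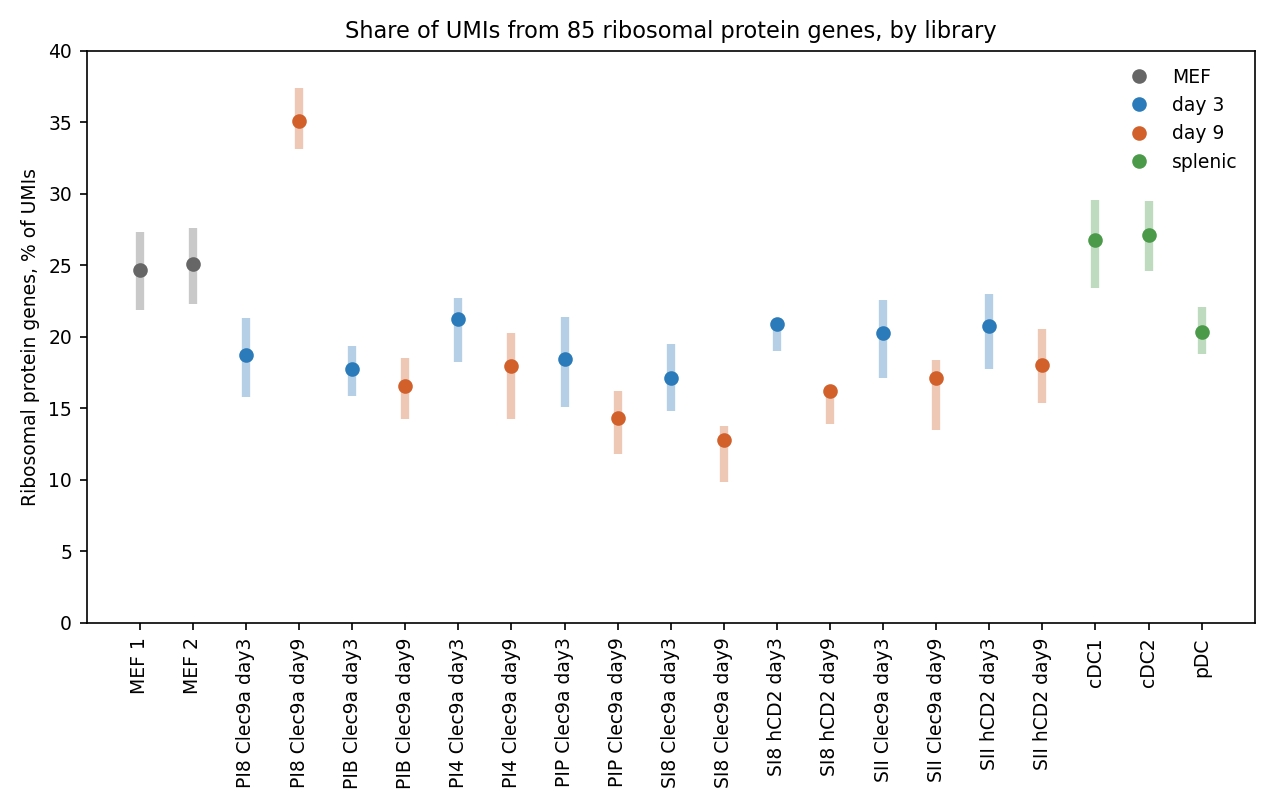
Share of UMIs from the 85 ribosomal protein genes in each of the 21 libraries; points are the summed counts of a library and bars the middle quartiles (25th to 75th percentile) over its cells. PI8 at day 9 stands at 35.1%, and the other transduced libraries lie between 12.7% and 21.3%, below both MEF libraries.

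From day 3 to day 9 the share was lower in 7 of 8 arms. It went from 17.8% to 16.6% in PIB, from 21.3% to 17.9% in PI4 and from 18.5% to 14.3% in PIP. In SI8 it went from 17.1% to 12.7% (Clec9a line) and from 20.9% to 16.2% (hCD2 line), and in SII from 20.2% to 17.1% and from 20.8% to 18%. In PI8 it was 18.7% in the day 3 library and 35.1% in the library labelled day 9. Over the 8 arms the mean difference was -0.909 percentage points (SD 7.08), which was within the spread (exact sign-flip permutation test, two-sided, n = 8, p = 0.852; adjusted p = 0.852). Without the PI8 arm it was -3.38 points (SD 1.20, n = 7); no p is given, since the arm left out was the only one of the opposite sign. Transcripts of Gm42418, AY036118 and Lars2, read as signs of RNA quality, took a larger part of the counts on day 9 than on day 3 in 7 of 8 arms, at 0.284% to 8.32% on day 3 and 0.146% to 10.8% on day 9. With those genes and the mitochondrial genes taken out of the total, the mean difference of the 8 arms was -0.856 points (exact sign-flip permutation p = 0.875). Macrophage markers were higher at day 9 in SI8, the arms with the largest fall of the share. They summed to 1466 and 1188 CPM at day 3 and to 8606 and 9100 CPM at day 9 (4 of 4 detected, except C1qa at 0 in the hCD2 line at day 3). In the other arms they summed to 31.7 to 691 CPM at day 3 and 29.6 to 765 CPM at day 9. They also rose in PIB, the arm with the smallest fall, from 105 to 765 CPM. In PIP, where the share changed by -4.14 points, they went from 32.0 to 29.6 CPM. The part of these markers in the share was not tested.

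The lower share was spread over most of the genes. In the 7 arms other than PI8, between 62 and 80 of the 81 genes at 50 CPM or more were lower at day 9, and 54 of the 81 were lower in all 7 arms. Their median log2 change ran from -0.15 in PIB to -0.40 in both SI8 arms. Over all 2782 genes at that level the median lay between -0.08 and 0.09 in the same arms, with 42.3% to 58.2% of genes lower. These are values per arm, and how many of all genes were lower in all 7 arms was not counted, so the 54 has no background. In the PI8 arm 79 of 81 were higher, with a median of 0.93, while the median of all genes there was -0.40. The exceptions in PI8 were Rps2 and Rps27l.

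**Figure D2:**
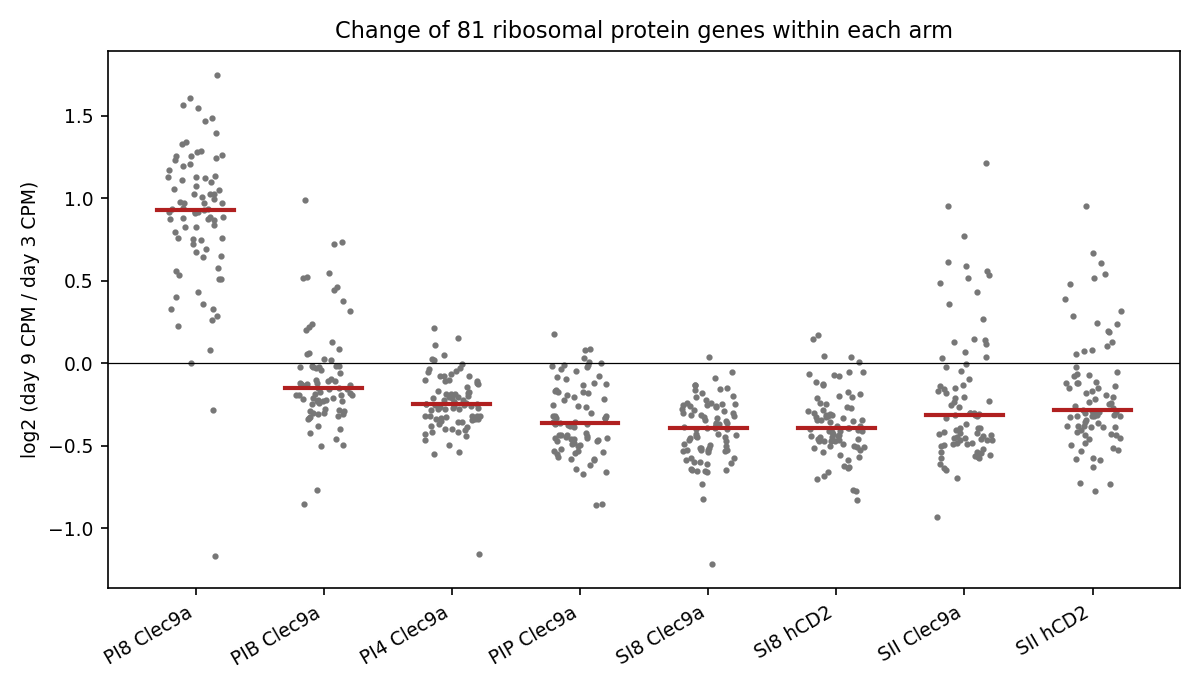
Log2 ratio of day 9 to day 3 CPM for 81 ribosomal protein genes within each of the 8 arms; a point is 1 gene and the red line the median. The PI8 arm has its median at 0.93, and the other arms have medians from -0.15 to -0.40.

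In edgeR's quasi-likelihood test with the arm as a block, 0 of the 84 genes passed an adjusted p under 0.05 between day 9 and day 3, with 0.0808% of all 16090 genes called. Of the 84, 30 had an unadjusted p under 0.05, 74 had a negative log2 fold change, and the median was -0.30 against -0.01 for all genes. DESeq2 called 8, each of them lower, with 4.03% of all genes called lower. Leaving out PI8 day 9, edgeR called 51 of 84 lower and 0 higher at day 9, where 7.55% of all genes were called, 4.13% lower and 3.42% higher. The number lower was 43 with the SI8 hCD2 libraries also left out (2.82% of all genes called lower), and 19 with PI8 day 9, PIB and SII left out (2.13% of all genes called lower). The genes below are the 5 lowest of the 51, and their adjusted p-values come from edgeR's quasi-likelihood test without PI8 day 9. In the PI8 arm 79 of 81 genes were higher, so leaving it out removed mostly values of the opposite sign. Calls and p-values without PI8 day 9, here and below, therefore describe only the remaining libraries and are not a test over all arms.

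Rps2, a small-subunit protein near the entry of the messenger RNA, ran from 2642 through a median of 3435 to 3954 CPM at day 3. At day 9 it ran from 1611 through 1985 to 2500 CPM in the 7 arms. The ranges did not overlap, and the log2 fold change was -0.80 ± 0.08 (SE; adjusted p = 0.00486; lower in 7 of 7 arms). With PI8 day 9 (2886 CPM) kept in, it was -0.78 ± 0.11 with an adjusted p of 0.0503.

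Rplp0 and Rpsa followed. Rplp0, the base of the stalk that recruits elongation factors, ran from 2733 through 3295 to 3489 CPM at day 3 and from 1778 through 2154 to 2574 CPM at day 9 without PI8 (-0.67 ± 0.09, adjusted p = 0.009). Rpsa, also known as a laminin receptor, ran from 1858 through 2710 to 3294 CPM at day 3 and from 1536 through 1714 to 2144 CPM at day 9 (-0.64 ± 0.11, adjusted p = 0.0137). In PI8 day 9 both were far higher than in any other transduced library, at 4916 CPM for Rplp0 and 6823 CPM for Rpsa. Rpl7 (-0.65 ± 0.11) and Rpl18 (-0.63 ± 0.08), both large-subunit proteins, were lower in 7 of 7 arms. The day 3 and day 9 ranges of Rpsa overlapped, and those of Rplp0 did not. Of the other stalk proteins, Rplp1 was lower at day 9 in 6 of 7 arms (3766 to 6115 CPM at day 3 and 2951 to 4857 CPM at day 9) and Rplp2 in 5 of 7 (1711 to 2762 and 1576 to 2352 CPM). Rps27a, which is made as a fusion with ubiquitin, ran from 3319 to 3992 CPM at day 3 and from 2214 to 3137 CPM at day 9 without PI8 (-0.55 ± 0.09, adjusted p = 0.0135).

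Some ribosomal protein genes were higher at day 9 in 3 arms where most were lower. Of the 81 genes, 12 were higher at day 9 in PIB and in both SII arms, among them Rpl35, Rps21, Rps28, Rpl36a, Rpl38, Rps27, Rpl36 and Rpl37. This set was chosen after its values were seen and was not tested, and how many of all genes were higher in these 3 arms was not counted. Of the 12, Rpl35, Rpl36a, Rpl39 and Rpl37a were lower in all 4 of PI4, PIP and both SI8 arms. Rps21 and Rpl37 were higher in 3 of those 4 arms, Rps27 in 2 and the remaining 5 genes in 1. Rpl35, a large-subunit protein at the exit of the peptide tunnel, went from 888 to 1479 CPM in PIB, from 811 to 1879 in the Clec9a line with SII and from 984 to 1904 in the hCD2 line with SII. In PI4, PIP and both SI8 arms its log2 change was -0.59 to -0.05. In edgeR's quasi-likelihood test of the interaction, which asks whether the day change differed between SII and SI8, 1.05% of all genes and 0 of 84 ribosomal protein genes passed (5 had an unadjusted p under 0.05, and DESeq2 called 3, each higher, with 5.89% of all genes called higher). Rps27rt went the other way in these arms, from 27.4 to 9.99 CPM in PIB, from 48.7 to 20.1 and from 41.1 to 17.5 in SII. What set these 3 day 9 libraries apart was not tested.

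**Figure D3:**
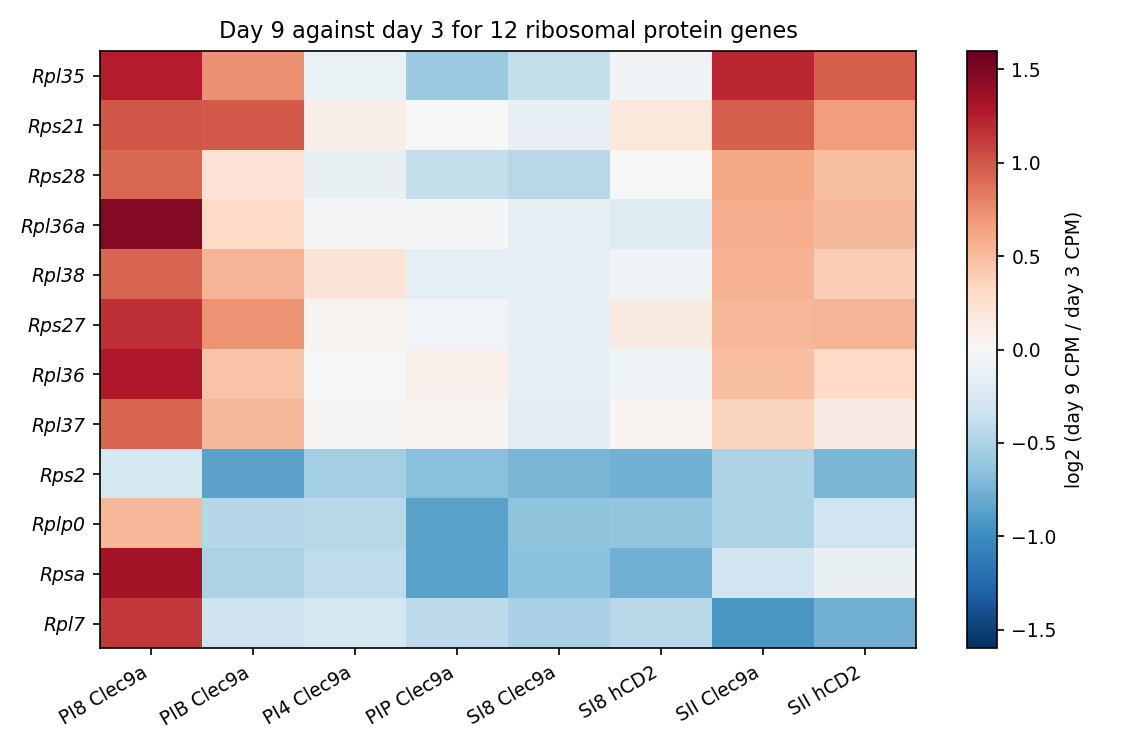
Log2 ratio of day 9 to day 3 CPM in the 8 arms for 8 genes that were higher in PIB and both SII arms and 4 genes that were lower in the 7 arms other than PI8. Rpl35 stands at 0.73 in PIB and 1.21 and 0.95 in SII and below 0 in PI4, PIP and both SI8 arms, while Rps21 is also above 0 in 3 of those 4.

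Across the 81 genes the day change was lower for longer transcripts in 7 arms. Spearman's rho with transcript length was -0.29 to -0.50 there and 0.13 in PI8. The genes of an arm share its 2 libraries and are not independent replicates, so these values are a description. The log2 ratio of summed small-subunit to large-subunit UMIs changed by -0.03 on average from day 3 to day 9 (SD 0.06, lower in 7 of 8 arms), within the spread (exact sign-flip permutation test, n = 8, p = 0.227; adjusted p = 0.417). Without the PI8 arm it was -0.05 (SD 0.02, lower in 7 of 7 arms), with no p for the reason given above.

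Against MEF, the day 9 libraries were lower for most ribosomal protein genes, and a few genes led. edgeR called 9 of 84 (8 lower and 1 higher), where 10.6% of all 16538 genes were called, 5.54% lower and 5.01% higher, so the number called was near the background. The median log2 fold change was -0.42 against 0.19 for all genes, and 75 of 84 were negative. Without PI8 day 9, 46 of 84 were called (45 lower and 1 higher), against 20.2% of all genes called, 9.78% lower and 10.4% higher. With only 1 MEF library, 0 of the 84 were called at day 9 (1.5% and 1.52% of all genes called without the first and the second) or at day 3 (3.21% and 3.19%). At day 3, 6 of 84 were called (4 lower and 2 higher), against 17.1% of all genes (8.38% lower and 8.7% higher), with a median of -0.18 against 0.14. Both comparisons share the MEF libraries. Scaling on the summed ribosomal protein counts moved the median of all genes from 0.19 to 0.68 at day 9 and from 0.14 to 0.36 at day 3, and edgeR then called 4 higher (13.7% of all genes) and 2 lower (2.7%) at day 9.

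Rpl39l, a paralog of Rpl39 known from the testis, was the gene called higher at both days. It was at 0.429 and 0.604 CPM in the 2 MEF libraries. At day 3 it ran from 10.8 (SII, hCD2 line) through a median of 29.3 to 59.3 CPM (PI4). At day 9 it ran from 20.9 through a median of 25.3 to 69.6 CPM (PI4) in 7 libraries and was at 0 UMIs in PI8, which allows up to 0.484 CPM. It was above both MEF libraries in 8 of 8 libraries at day 3 and 7 of 8 at day 9, with no overlap with MEF outside PI8. The log2 fold change was 6.20 ± 1.49 at day 3 (adjusted p = 0.00933) and 6.02 ± 1.47 at day 9 (adjusted p = 0.0146), by edgeR's quasi-likelihood test. The splenic libraries held 0.303 CPM in cDC1, 1.37 in cDC2 and 0.734 in pDC.

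Its parent gene went the other way. Rpl39 was at 4411 and 4549 CPM in MEF and ran from 1647 through a median of 2249 to 2626 CPM at day 3, with no overlap (-0.89 ± 0.23, adjusted p = 0.0129, edgeR's quasi-likelihood test). At day 9 it ran from 1494 through 2196 to 3114 CPM outside PI8, which held 4429 CPM (-0.84 ± 0.23, adjusted p = 0.0247). Splenic levels were 5028 CPM in cDC1, 5717 in cDC2 and 3572 in pDC.

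Rpl22l1, the paralog of the large-subunit gene Rpl22, was lower in transduced cells. It was at 1157 and 1167 CPM in MEF and ran from 347 through a median of 382 to 435 CPM at day 3 (-1.43 ± 0.39, adjusted p = 0.0195, edgeR's quasi-likelihood test). At day 9 it ran from 164 through 250.2 to 523 CPM in 7 libraries and at 1159 CPM in PI8 (-1.57 ± 0.39, adjusted p = 0.0162). PI8 day 9 thus lay at the MEF level and the other libraries below it. In the spleen Rpl22l1 was at 503 CPM in cDC1, 429 in cDC2 and 439 in pDC. Its log2 ratio to Rpl22 did not pass between the days (-0.09, SD 0.70, exact permutation p = 0.711 over 8 arms), and of the 5 paralog ratios that could be tested only that of Rpl36al to Rpl36a did. That ratio was lower at day 9 in 8 of 8 arms (-0.37, SD 0.37, exact sign-flip permutation p = 0.00781, n = 8; adjusted p = 0.0391 over 5 ratios). The PI8 arm, whose day 9 label is in doubt, held its largest fall. Without that arm the ratio changed by -0.25 (exact sign-flip permutation p = 0.0156, the smallest that 7 arms allow). The ratio of Rpl7l1 to Rpl7 was 0.21 over 8 arms (exact permutation p = 0.359) and 0.40 without the PI8 arm, higher in 7 of 7, which fixes its exact permutation p at 0.0156, the smallest that 7 arms allow.

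**Figure D4:**
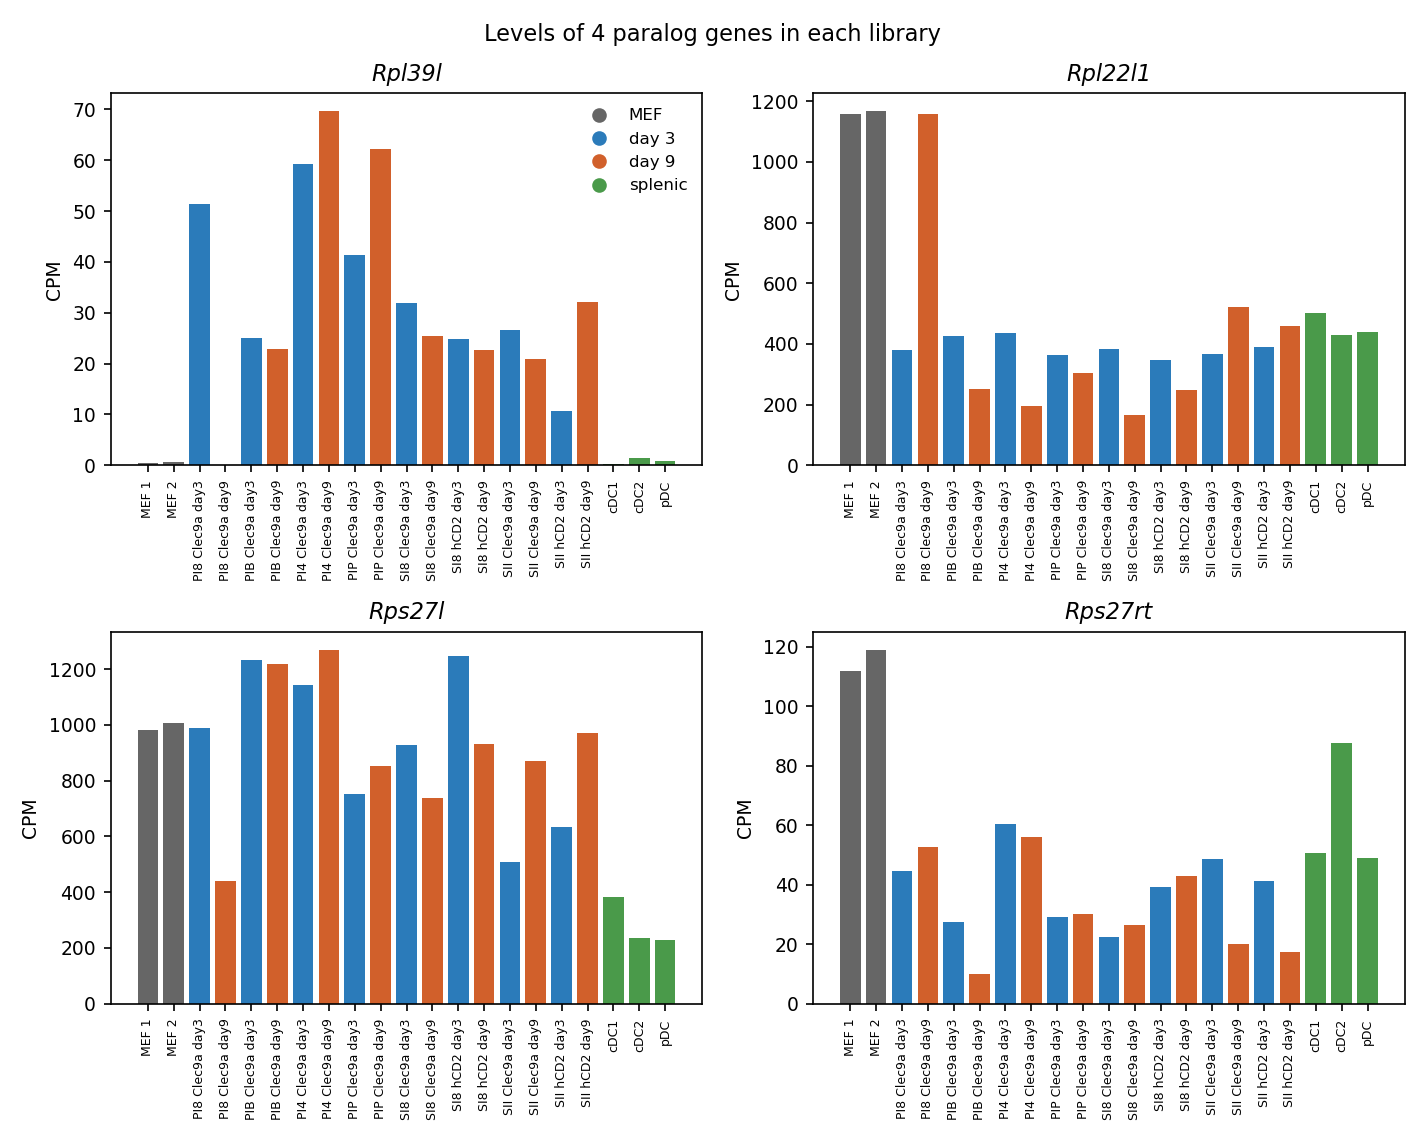
Levels in CPM of the paralog genes Rpl39l, Rpl22l1, Rps27l and Rps27rt in each of the 21 libraries; each bar is 1 library. Rpl39l is at 0.429 and 0.604 CPM in MEF and at 0 in PI8 day 9, and Rpl22l1 is near 1160 CPM in MEF and PI8 day 9 only.

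Rps27rt, whose reads may be shared with Rps27, was at 112 and 119 CPM in MEF, 22.4 to 60.3 CPM at day 3 and 9.99 to 55.9 CPM at day 9 (-1.42 ± 0.45, adjusted p = 0.0386, and -1.82 ± 0.44, adjusted p = 0.0144, by edgeR's quasi-likelihood test). Rpl34 was lower at day 3 (3768 and 3879 CPM in MEF against 1766 to 2575; -0.65 ± 0.20). Rpl12, of the base of the stalk, and Rps20 were lower at day 9. Rps20 was at 8144 and 8377 CPM in MEF and 3707 to 7289 CPM at day 9 (-0.77 ± 0.18, adjusted p = 0.0119), below both MEF libraries in 8 of 8. Rpl12 was at 3324 and 3356 CPM in MEF and 1212 to 3650 CPM at day 9 (-0.84 ± 0.26, adjusted p = 0.0456), with PI8 above both. Rpl3l, a paralog of Rpl3 known from muscle, had 0 UMIs in MEF and 2 to 47 UMIs at day 3, a mean of 0.412 CPM. This mean was at least 12-fold higher than the limit of 3 UMIs over both MEF libraries, 0.0342 CPM (adjusted p = 0.029, edgeR's quasi-likelihood test). Single day 3 libraries ran from 0.0422 to 0.900 CPM, so the lowest lay near that limit. Leaving out the day 3 library of PI8, PIB, PIP or SI8 (Clec9a line) ended the day 3 calls of Rps27rt and Rpl34, with adjusted p up to 0.0594 and 0.0574. The day 9 call of Rpl12 was lost in 11 of 16 fits without 1 transduced library (adjusted p up to 0.0662). Among cells with at least 10000 UMIs the day 9 calls of Rpl39, Rps20 and Rpl12 and the day 3 calls of Rpl39, Rps27rt and Rpl34 were lost (adjusted p 0.056 to 0.222). Scaled to the summed ribosomal protein counts, the day 9 log2 fold changes were -0.38 for Rpl39, -0.29 for Rps20 and -0.41 for Rpl12 (adjusted p = 0.15, 0.21 and 0.0857), and the day 3 calls of Rps27rt and Rpl34 were also lost (-1.22 and -0.44; adjusted p = 0.0559 and 0.0532), all by edgeR's quasi-likelihood test.

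SII was compared with SI8, which differ by Ikzf2, in 4 pairs of 1 line and 1 day. The summed share was higher in SII in 3 of 4 pairs (mean 2.27 points, SD 1.92; exact permutation p = 0.25 and adjusted p = 0.417; 4 pairs allow no p below 0.13). edgeR called 8 of 84 (2 higher and 6 lower), against 37.6% of all 15423 genes (18.8% in each direction), and the median was -0.10 against 0.04. The fold changes use TMM scaling between libraries, which the share and the CPM values do not. Its factors were 0.867 to 0.996 in SI8 and 1.04 to 1.17 in SII. Leaving out both SI8 hCD2 libraries left 0 called, with 10.3% of all genes called, and turned the median to 0.06 (53 of 84 positive). Among cells with at least 10000 UMIs the median was -0.33 (6 of 84 positive). At that depth the SI8 hCD2 libraries kept only 11 of 650 cells (day 3) and 31 of 1203 (day 9). Scaled to the summed ribosomal protein counts, with all cells, the median was -0.001. Macrophage markers summed to 1188 to 9100 CPM in the 4 SI8 libraries (C1qa at 0 in 1) and to 103 to 200.2 CPM in the 4 SII libraries (C1qa at 0 in 4 and Adgre1 in 1), and their part in these differences was not tested. Libraries are given below in the order Clec9a day 3, hCD2 day 3, Clec9a day 9 and hCD2 day 9.

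Rpl7l1, an Rpl7-like gene, was at 75.7, 62.2, 68.9 and 70.9 CPM in SII and at 111, 112, 95.4 and 84.3 CPM in SI8 (-0.82 ± 0.14, adjusted p = 0.00374, edgeR's quasi-likelihood test). The groups did not overlap. Rps27 was at 1512, 1650, 2195 and 2405 CPM in SII and at 968, 1110, 882 and 1232 CPM in SI8 (0.57 ± 0.18, adjusted p = 0.0361), also without overlap. Rps9 (0.53 ± 0.18) was the other gene called higher. Rps27l (-0.68 ± 0.23), Rpl36al (-0.62 ± 0.20), Rpsa (-0.60 ± 0.18), Rps2 (-0.52 ± 0.15) and Rplp0 (-0.43 ± 0.15) were called lower, with adjusted p-values of 0.0275 to 0.0494, and Rps2 was lower in 4 of 4 pairs, Rpl36al, Rpsa and Rplp0 in 3 of 4 and Rps27l in 2 of 4. Only Rpl7l1 among the 7 genes with the largest changes stayed called when any 1 of the 8 libraries was left out (adjusted p 0.00629 to 0.0158); the calls of the other 6 were lost in 6 or 7 of 8 such fits. Among cells with at least 10000 UMIs the share reversed to -0.238 points, and the higher calls of Rps27 and Rps9 were lost, at 0.20 and 0.23 (adjusted p = 0.632 and 0.586, edgeR's quasi-likelihood test). These values rest in part on the 11 and 31 cells left in the SI8 hCD2 libraries at day 3 and day 9. The share of those cells was 26.3% and 20.7%, against 20.9% and 16.2% over all cells of the 2 libraries.

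The reporter line and the IRF in the set gave no call. Between the hCD2 and Clec9a lines 81 of 84 genes had a positive log2 fold change (median 0.23 against -0.04 for all genes), but 0 passed in edgeR, with 0.0195% of all genes called and 4 of the 84 at an unadjusted p under 0.05 (DESeq2 called 0, with 0.474% of all genes called). The median was 0.09 without SI8 Clec9a day 9, 0.15 without the shallow SI8 hCD2 day 9 library and 0.44 among cells with at least 10000 UMIs. At that depth the SI8 hCD2 libraries kept only 11 cells at day 3 and 31 at day 9. Between the Irf4 sets (PI4 and PIP) and the Irf8 sets (PI8 and PIB) 0 passed in edgeR or DESeq2, with 0.00697% of all genes called in edgeR and 2.34% in DESeq2, and 0 of the 84 at an unadjusted p under 0.05 in edgeR. The median was -0.09 with 24 of 84 positive. Without PI8 day 9 it turned to 0.17, with 78 of 84 positive, 8 at an unadjusted p under 0.05 and 0 called, and without PIP day 9 to 0.02, with 50 positive.

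Other translation genes were read from fixed lists. Of 18 elongation and TOP genes, 17 had a negative day 9 against day 3 fold change (median -0.35, 0 called). Without PI8 day 9, 13 were called lower and 0 higher (4.13% of all genes called lower), such as Eif3k (-0.54) and Naca (-0.52), both by edgeR's quasi-likelihood test. Of 25 ribosome assembly genes the median was 0.15, with 0 called, and 1 was called lower without PI8 day 9 (Npm1, -0.49). Mitochondrial ribosomal proteins, 78 genes of another ribosome, had a median of -0.12 and 0 calls, with 7 called lower without PI8 day 9. Of the 10 regulators, which include Myc and Mtor, 0 were called between day 9 and day 3, and without PI8 day 9 Eif4ebp1 was called lower (-0.49). In SII against SI8, 13 of 25 assembly genes and 45 of 78 mitochondrial ribosomal protein genes were called lower, and 1 (Ubtf) and 0 higher, where 18.8% of all genes were called in each direction. Of the 18 elongation and TOP genes 4 were called lower and 1 higher there. Of 9 regulators tested, Myc (-2.44) and Eif4ebp1 (-0.74) were called lower and Mtor (0.70) and Rps6kb1 (0.83) higher.

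Among the spleen cells pDC had the lowest share, at 20.3% against 26.8% in cDC1 and 27.1% in cDC2, with 1 library each and no test. Of 81 genes 73 were lower in pDC than the mean of the cDCs (median log2 difference -0.42), and 67 lay below both cDC libraries. Of all 2801 genes at 50 CPM or more in these libraries 1233 were lower (median 0.10) and 870 lay below both cDC libraries. Rps29, a small zinc-binding protein of the small subunit named here after its values were seen, was at 10033 CPM in cDC1, 9268 in cDC2 and 4713 in pDC. It was at 6287 CPM in PI8 day 9, 2275 to 3851 in the other 15 transduced libraries and 2852 and 2864 in MEF. Rps27a was at 5321, 6138 and 2821 CPM in the same order. The 3 genes furthest in the other direction were Rpl31 at 1058, 812 and 2521 CPM, Rpl13a at 2033, 2300 and 3056 CPM and Rpl10 at 3050, 3102 and 4056 CPM.

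**Figure D5:**
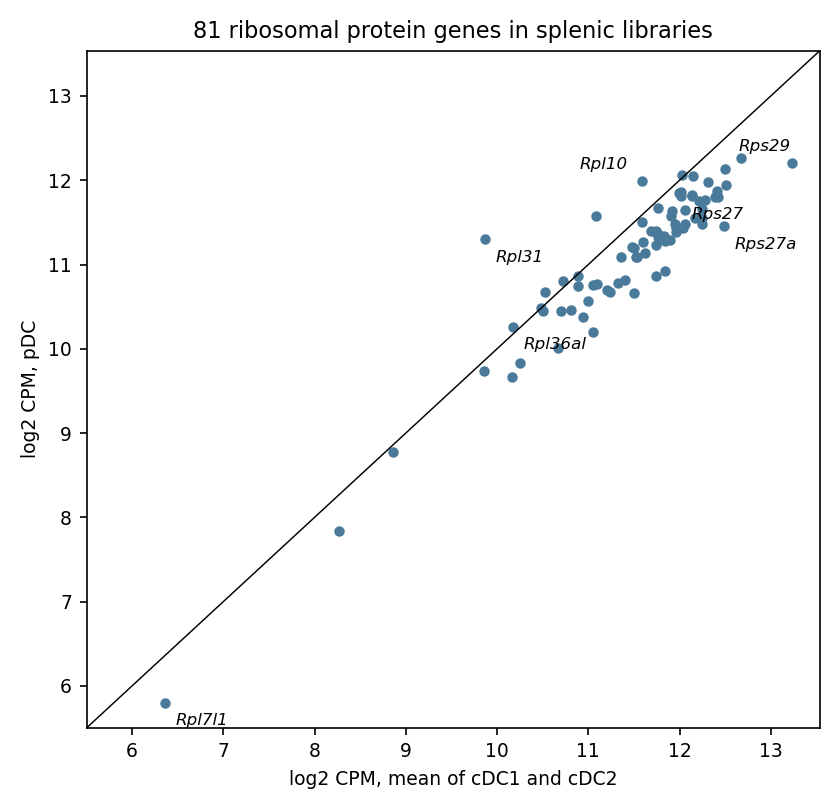
Log2 CPM of 81 ribosomal protein genes in pDC against the mean of cDC1 and cDC2; the line marks equal levels and each point is 1 gene. Of the 81 points, 73 lie below the line, and Rpl31 and Rpl10 lie above it.

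Within the group, single genes kept or shifted their part. Ranges were ranked over the 81 genes at 50 CPM or more, which leaves out Rpl39l. The widest log2 range over 21 libraries of a gene's part of the summed ribosomal protein UMIs was that of Rps27l (3.08), followed by Rpl22l1 (2.11), Rpl31 (2.05), Rps27 (1.94) and Rpl10 (1.80). Rps27l, a p53-responsive paralog, was at 235 and 230 CPM in cDC2 and pDC and 381 in cDC1, 439 in PI8 day 9, 982 and 1006 in MEF and 510 to 1270 in the other transduced libraries. The narrowest ranges were those of Rpl21 (0.32), Rpl27a (0.32), Rps13 (0.40), Rpl6 (0.44) and Rpl17 (0.45). The genes outside the group whose CPM ranked libraries most like the share did were Eif3f (Spearman's rho 0.90 over 21 libraries), Rack1 (0.87), Eif3h (0.86), Hmgb2 (0.86) and Eef1a1 (0.85), given as a description. RACK1 is itself a protein of the small subunit, and EIF3F, EIF3H and EEF1A1 serve initiation and elongation.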

How the data were processed

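The deposited values were UMI counts per gene and cell, made by the authors on mm10; the submitters' processing notes name Cell Ranger 6.0.1 and Seurat. Filters on cells are not given in the sources used here. The table held 25991 cells in 21 libraries with 2501 to 99996 UMIs per cell, and no cell was removed and no doublet caller was run. Counts were summed over the cells of each library. The 2 MEF libraries differed by more than counting error (chi-square 2.35 per degree of freedom over 15245 genes and 37.8 over 83 ribosomal protein genes) and were kept as 2 samples.

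Sums were tested in R 4.3.3 by the quasi-likelihood F test of edgeR 4.0.16, after TMM scaling and filterByExpr, with p-values adjusted by Benjamini-Hochberg over all genes tested and calls at adjusted p under 0.05. The arm was a block in the comparison of day 9 with day 3, since an arm has 1 library of each day in the labels. DESeq2 1.42.0, other scalings and filters, deeper cells and leaving out libraries were tried. The scripts were tested on simulated data. Single values used exact permutation tests (scipy 1.17.1). A count of 0 is given as up to 3 counts. Ratios of counts had 0.5 added.

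In each contrast the text names up to 5 highest and 5 lowest called genes, paralogs with their parents, stalk genes, and genes with the widest and narrowest range. Genes and lists were chosen with earlier results of these data known. No deposited column was left out (0 unassigned).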

Additional observations from a re-analysis of the deposited data

Results flagged for a closer look

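The share of UMIs from ribosomal protein genes was 16.4 percentage points higher in the library labelled PI8 day 9 than in PI8 day 3, while each of the other 7 arms was lower at day 9 (mean -3.38 points, SD 1.20). It is given here because 1 arm moved one way and every other arm the opposite way. The difference was not tested, since the PI8 arm has 1 library a day. The same library held fibroblast markers at 6.13 CPM and Myc at 146 CPM, and their part in the difference was not tested.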

How the results depend on the processing

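Calls of ribosomal protein genes depended on the libraries, the tool and the scaling. The fits below tested 83 to 85 of these genes. Scaling to their summed counts gave 6 for day 9 against MEF (4 higher and 2 lower, against 1 and 8) and 5 for day 3 against MEF. Over all genes these 2 fits called 2708 and 2226 of 16538. With DESeq2 the counts were 14 for day 9 against MEF, 8 for day 9 against day 3, 16 for SII against SI8 and 3 for the interaction of set and day. Over all genes DESeq2 called 3579 of 16537, 1203 of 15778, 6617 of 15423 and 1410 of 13928 in that order. Without a filter on low counts the ribosomal protein genes called were 5 for day 9 against MEF and 5 for SII against SI8. Over all genes these were 1494 of 22416 and 5623 of 20830. Among cells of at least 10000 UMIs the counts of ribosomal protein genes were 3, 3 and 4 for day 9 against MEF, day 3 against MEF and SII against SI8. Over all genes they were 1497 of 16427, 2364 of 16427 and 3838 of 15054. TMM factors estimated without the ribosomal protein genes gave 1 for day 9 against day 3 (18 of 16090 over all genes). Without PI8 day 9 and both SI8 hCD2 libraries the counts were 55, 12 and 43 for day 9 against MEF, day 3 against MEF and day 9 against day 3. Over all genes these fits called 3184 of 16482, 4527 of 16482 and 888 of 17005 in that order. Without PI8 day 9, PIB and SII the count for day 9 against day 3 was 19 (636 of 14759 over all genes). Without both SI8 hCD2 libraries that for SII against SI8 was 0 (1618 of 15664 over all genes). These removals were chosen after seeing the data, as was the interaction.

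Leaving out 1 library at a time gave 0 to 46 for day 9 against MEF, 0 to 12 for day 3 against MEF, 0 to 51 for day 9 against day 3, 1 to 10 for SII against SI8 and 0 to 1 for the interaction. The 46 and 12 came without PI8 day 9, the 51 without either PI8 library, and the 0 without either MEF library. A MEF fit with 1 MEF library assumes that it varies like the other groups. Over all genes the fits without PI8 day 9 called 3310 of 16413 (day 9 against MEF), 4451 of 16413 (day 3 against MEF) and 1272 of 16847 (day 9 against day 3). Without PI8 day 3 it was 1232 of 17368 for day 9 against day 3. In SII against SI8 the fit with 10 called 5306 of 15798 genes, and the fits with 1 called 3575 to 4222 genes.

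The share changed by -3.38 to -0.363 points between days and by -7.02 to -5.53 points against MEF when 1 library or arm was left out. The SII minus SI8 share ran from 1.59 to 3.09 points, and reversed to -0.238 among cells of at least 10000 UMIs, where the SI8 hCD2 libraries kept 11 and 31 cells. The log2 subunit ratio ran from -0.0506 to -0.0226 between days and from -0.0168 to 0.0025 between SII and SI8. The paralog ratio of Rpl22l1 to Rpl22 ran from -0.224 to 0.0354 and was 0.10 in the deeper cells. Without 1 arm, Rpl7l1 to Rpl7 ran from 0.10 to 0.40 and Rps27rt to Rps27 from -0.97 to -0.61.

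No paired analysis by replicate number was possible because the groups compared share fewer than 2 numbers. The arms come from the labels, and the fit without the arm block called 0 between the days.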
